A study of Mus musculus with 8 samples.

Results

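Control organoids are mouse small intestinal epithelium grown in vitro without irradiation, and they were compared here between 2 times of collection, day 7 and day 4. The comparison uses 4 of the 8 libraries of the study, 2 at each day, chosen by their labels and not by any measured value. Every gene that passed a filter on low counts entered it, 14063 in all. Per the labels the epithelial cells came from the intestines of C57BL/6 mice homozygous for 2 transgenes, the activator Rosa26-rtTA (Tg/Tg) and the cassette Col1A1-TetO-OSKM (Tg/Tg). OSKM stands for the factors Pou5f1 (Oct4), Sox2, Klf4 and Myc, which this cassette expresses when an inducing drug is added. All 8 libraries share this genotype, and the labels do not say whether the inducer was given. The other 4 libraries are organoids of the same genotype and the same 2 days that received 6 Gy of X-rays. Organoids were kept in a commercial growth medium (IntestiCult) in Matrigel, a basement membrane gel, and were dissociated before RNA isolation. The labels do not say from what event the days were counted, when the cultures were last split, or whether the 2 libraries of a group came from separate mice or cultures. The p-values then measure only the spread between these libraries, which may be technical. The comparison addresses how the transcriptome of unirradiated organoids changed between the 2 days.

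Small intestinal organoids hold the epithelial lineages of the crypt and the villus without stroma, vessels or immune cells. Stem cells at the crypt base depend on Wnt signals, which release β-catenin to act with TCF factors on target genes, several of which (Axin2, Nkd1, Rnf43) feed back to dampen the pathway. Their progeny divide and then become absorptive enterocytes under Notch signalling, or secretory cells: Paneth, goblet, enteroendocrine and tuft cells. Enteroendocrine cells are rare hormone-producing cells whose granule proteins and peptide hormones make them conspicuous in RNA from whole epithelium.

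The total of expected counts ran from 9119782 to 16054269 in the 4 control libraries, so 1 count stood for between 0.061 and 0.107 CPM, a count divided by its library's total after TMM scaling (trimmed mean of M-values). The pair of day 4 libraries was further apart than the pair of day 7 libraries, with a biological coefficient of variation of 0.136 against 0.047. On the first 2 principal components of the 4 libraries, the first (52.6% of the variance) separated the days and the second (24.9%) lay mostly between the day 4 replicates. Markers of the labelled tissue were present: 28 of 28 enterocyte, 19 of 19 Paneth, 18 of 18 goblet and 28 of 28 enteroendocrine markers had counts in the control libraries. Summed markers of other cell types stayed low. The 13 mesenchymal markers summed to 17.2 and 17.6 CPM at day 4 and 5.9 and 6.62 CPM at day 7, with 4 at 0 in all 4 libraries, and most of that sum was Vim. The 13 immune markers summed to between 6.05 and 7.86 CPM per library with 5 at 0, and the 8 endothelial markers to between 1.83 and 4.57 CPM with 4 at 0. These are bulk samples, so fewer cells of a type and less RNA per cell cannot be told apart in any result that follows.

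Between day 4 and day 7, 382 of 14063 tested genes (2.72%) were called at an adjusted p under 0.05 in edgeR's quasi-likelihood test, 176 higher at day 7 (1.25%) and 206 lower (1.46%). Of these, 65 rose and 91 fell by at least 2-fold, and the median size of a called change was 0.83 on the log2 scale. The median log2 fold change over all tested genes was -0.00052. The day 4 and day 7 values did not overlap in any called gene, against 26% of all tested genes without overlap and higher at day 7 and 26.5% without overlap and lower. The crypt base and Wnt response lists held 14 of the 176 rises, and the enteroendocrine list held 10 of the 206 falls. The number of calls changed with each control library left out, but such a fit keeps 1 library in that group. A call lost in it can reflect lower power as well as the library left out, and these were not told apart. On the deposited TPM values, tested with limma on log2(TPM + 1), 35 genes were called higher and 23 lower, and on log2(TPM + 0.1), 37 higher and 18 lower.

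**Figure D1:**
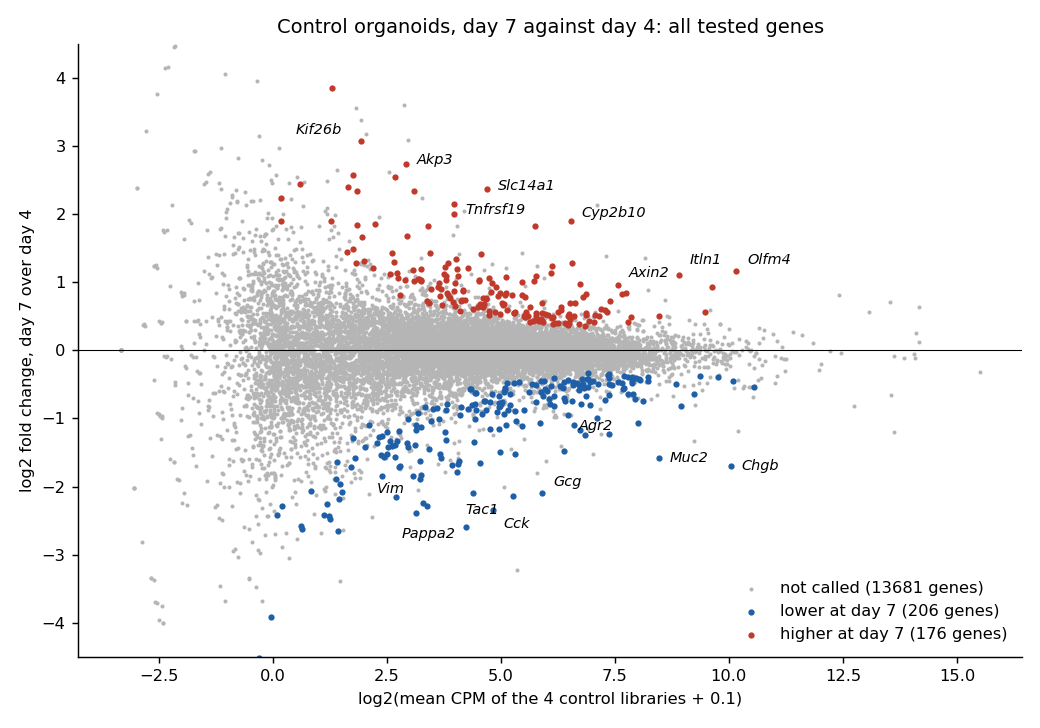
Each point is 1 of the 14063 tested genes, by mean level over the 4 control libraries (log2 of CPM + 0.1, horizontal) and log2 fold change of day 7 over day 4 (vertical), with genes called higher in red, called lower in blue and others in grey; 29 genes lie outside the vertical range. The 176 rises include Kif26b, Akp3 and Tnfrsf19 and the 206 falls include Pappa2, Cck and Gcg, while most genes lie near 0.

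Crypt base stem cell markers were among the genes that rose: 10 of 19 tested members passed the test, all higher at day 7, against 1.25% of all tested genes called higher, and the median log2 fold change of the list was 0.51. Tnfrsf19 (Troy), a receptor of Wnt-responsive stem cells, was at 7.67 and 5 CPM at day 4 and 24.3 and 25.7 at day 7 (log2 fold change 2.01 ± 0.18 SE, adjusted p = 0.000898). Olfm4, a secreted glycoprotein of crypt base cells, was at 693 and 723 CPM at day 4 and 1615 and 1558 at day 7 (log2 fold change 1.16 ± 0.21 SE, adjusted p = 0.0375). Msi1, an RNA-binding protein of crypt progenitors, was at 10.3 and 12.9 CPM at day 4 and 27.1 and 27.1 at day 7 (log2 fold change 1.21 ± 0.17 SE, adjusted p = 0.00708). In these 3 genes, as in every gene called higher, both day 7 libraries lay above both day 4 libraries. Smaller rises were measured for Cdca7, a nuclear protein induced by Myc, and for Rgmb, a BMP co-receptor. Cdca7 was at 72.7 and 67.6 CPM at day 4 and 111 and 117 at day 7 (log2 fold change 0.70 ± 0.09 SE, adjusted p = 0.00484). Rgmb was at 134 and 121 CPM at day 4 and 215 and 204 at day 7 (log2 fold change 0.72 ± 0.10 SE, adjusted p = 0.00687). The other called members were Axin2, Rnf43, Mex3a, Ascl2 and Sox9. Mex3a, an RNA-binding protein, Ascl2, a transcription factor that specifies intestinal stem cells, and Sox9, a crypt transcription factor, had log2 fold changes of 0.63 ± 0.11, 1.07 ± 0.20 and 0.46 ± 0.10 (SE), and these 3 were named after their values were seen. Lgr5, the receptor that marks crypt base stem cells, was not called: it was at 492 and 586 CPM at day 4 and 537 and 532 at day 7 (log2 fold change -0.01 ± 0.10 SE, adjusted p = 0.967), with both day 7 values between the day 4 values. Of the 10 calls, the number that held was 9 without day 4 replicate 1, 6 without day 4 replicate 2, 2 without day 7 replicate 1 and 1 without day 7 replicate 2. The list's median ran from 0.46 to 0.59 over these 4 fits, and Tnfrsf19 was the member called in all of them, with a highest adjusted p of 0.0181.

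Wnt target and feedback genes gave 7 calls among 15 tested members, all higher at day 7 (against 1.25% of all tested genes), with a median log2 fold change of 0.51. Of the 15 changes, 12 were positive and 3 negative, the lowest at -2.02 in a member that was not called. Axin2, Rnf43 and Ascl2 belong to both lists. Axin2, a scaffold of the β-catenin destruction complex and a standard readout of Wnt signalling, was at 128 and 128 CPM at day 4 and 241 and 259.7 at day 7 (log2 fold change 0.97 ± 0.11 SE, adjusted p = 0.00243). Nkd1, an inhibitor of Dishevelled, was at 2.47 and 1.28 CPM at day 4 and 9.98 and 11.3 at day 7 (log2 fold change 2.55 ± 0.33 SE, adjusted p = 0.00512). Sp5, a transcription factor induced by Wnt, was at 1.19 and 1.1 CPM at day 4 and 5.69 and 5.98 at day 7 (log2 fold change 2.34 ± 0.28 SE, adjusted p = 0.00373). The days did not overlap in any of the 3, as in every called gene, and the low levels of Nkd1 and Sp5 at day 4 went with the larger fold changes. Rnf43, a ubiquitin ligase that removes Wnt receptors from the surface, was at 101 and 91.9 CPM at day 4 and 141 and 135 at day 7 (log2 fold change 0.51 ± 0.09 SE, adjusted p = 0.0165). Ephb3, a receptor that positions cells along the crypt, was at 21.1 and 18.1 CPM at day 4 and 34.4 and 36.3 at day 7 (log2 fold change 0.85 ± 0.14 SE, adjusted p = 0.0157). Apcdd1, a Wnt inhibitor named after its value was seen, had a log2 fold change of 0.72 ± 0.17 (SE). Among the members that were not called, Cd44, an adhesion receptor and Wnt target, was at 100.5 and 88.7 CPM at day 4 and 131 and 131 at day 7 (log2 fold change 0.47 ± 0.12 SE, adjusted p = 0.0669), and Myc had a log2 fold change of -0.51 ± 0.14 (SE, adjusted p = 0.0858). Of the 7 calls, the number that held was 7 without day 4 replicate 1, 4 without day 4 replicate 2, 3 without day 7 replicate 1 and 0 without day 7 replicate 2. Of 15 Wnt ligands and R-spondins, 4 passed the filter and none was called, and 0 of these 4 had an unadjusted p under 0.05 in edgeR.

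The promoters of the 14 called genes of these 2 lists were searched because the genes moved together. RefSeq promoter sequences on GRCm38.p6 were found for 11 of the 14, in 15 windows that each covered the 250 bases before an annotated transcription start. The letters searched were CTTTGAA or CTTTGAT, a core motif bound by TCF factors, on both strands. A match was present in 2 of the 15 windows, those of Sp5 and of 1 of the 2 starts of Tnfrsf19, and in 7.48% of all 32851 RefSeq promoter windows of the same length. No match says only that these letters are not in the window. The windows of both genes with a match and of Axin2, which has none, are shown 5′ to 3′ on the strand of the gene, with the match in capitals. The match began 104 bases before the start in Sp5 and 202 bases before it in Tnfrsf19.
Sp5, chr2:70474673-70474922, plus strand: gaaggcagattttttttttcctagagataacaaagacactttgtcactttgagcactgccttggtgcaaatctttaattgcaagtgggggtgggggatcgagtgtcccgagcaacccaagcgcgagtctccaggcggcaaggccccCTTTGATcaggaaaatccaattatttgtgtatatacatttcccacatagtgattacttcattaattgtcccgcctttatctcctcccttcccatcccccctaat
Tnfrsf19, chr14:61037988-61038237, minus strand: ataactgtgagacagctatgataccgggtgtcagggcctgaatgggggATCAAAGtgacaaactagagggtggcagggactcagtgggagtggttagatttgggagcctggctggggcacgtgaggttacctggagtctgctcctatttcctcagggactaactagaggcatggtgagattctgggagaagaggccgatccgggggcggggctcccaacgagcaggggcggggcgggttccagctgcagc
Axin2, chr11:108920099-108920348, plus strand: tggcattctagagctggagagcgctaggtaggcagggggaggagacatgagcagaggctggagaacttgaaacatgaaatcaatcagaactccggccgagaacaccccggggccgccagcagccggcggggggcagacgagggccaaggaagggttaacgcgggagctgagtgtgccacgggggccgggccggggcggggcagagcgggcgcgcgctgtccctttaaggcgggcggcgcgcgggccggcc

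**Figure D2:**
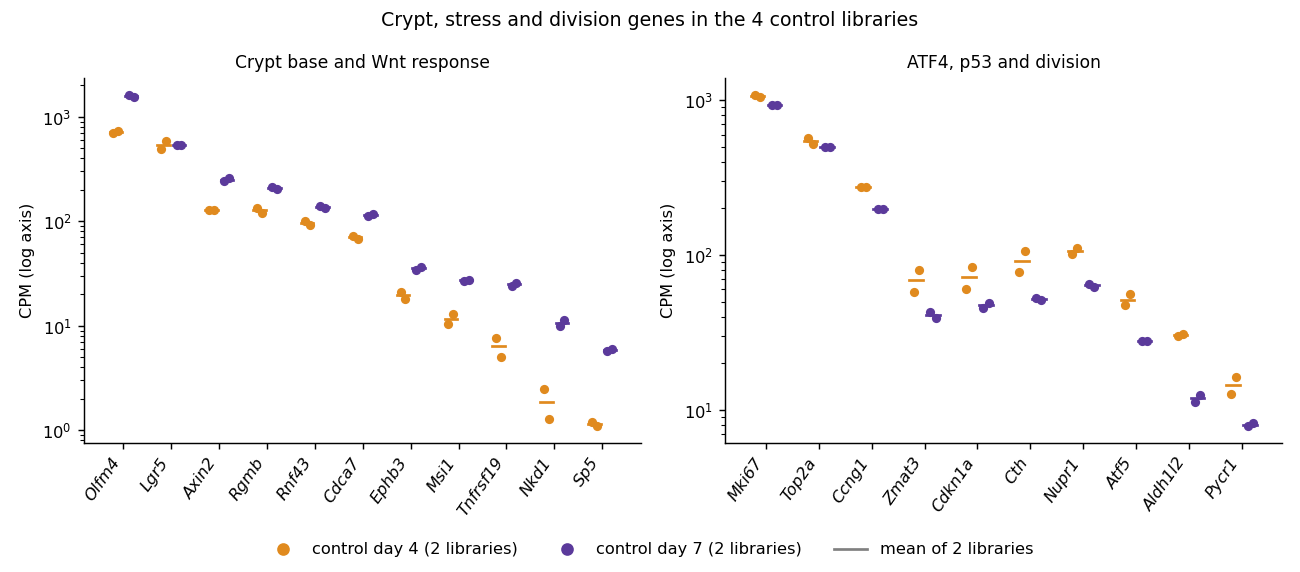
CPM on a log axis for crypt base and Wnt response genes (left) and for ATF4, p53 and division genes (right), with 2 points per day for the 2 control libraries and a bar at their mean. Both day 7 points of Tnfrsf19, Nkd1 and Sp5 lie above both day 4 points, the points of Lgr5 overlap, and those of Aldh1l2 and Atf5 lie lower at day 7.

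Genes of cell division were not called. None of 20 mitosis genes and none of 20 DNA replication genes was called, with medians of -0.05 and 0.14. An unadjusted p under 0.05 in edgeR was found for 2 and 4 of them, against 2520 of all 14063 tested genes. Mki67, a protein of dividing cells, was at 1082 and 1054 CPM at day 4 and 931 and 929 at day 7 (log2 fold change -0.20 ± 0.09 SE, adjusted p = 0.28). Top2a, the topoisomerase of dividing cells, was at 569 and 523 CPM at day 4 and 497 and 499 at day 7 (log2 fold change -0.13 ± 0.10 SE, adjusted p = 0.535). Rrm1, the large subunit of ribonucleotide reductase, was at 208 and 199 CPM at day 4 and 214 and 212 at day 7 (log2 fold change 0.06 ± 0.11 SE, adjusted p = 0.814). Both day 7 values of Mki67 and Top2a lay under both day 4 values, as in 26.5% of all tested genes, by less than the test could call. None of 39 cytosolic ribosomal protein genes (median -0.07) and none of 30 ribosome biogenesis genes (median 0.04) was called. Rpl4, the ribosomal protein gene with the highest CPM, was at 2353 and 2572 CPM at day 4 and 2258 and 2264 at day 7 (log2 fold change -0.12 ± 0.11 SE, adjusted p = 0.586).

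Enteroendocrine genes fell more broadly than those of any other list in number of calls: 10 of 25 tested members were lower at day 7, none was higher, and the median log2 fold change was -1.28, against 1.46% of all tested genes called lower. Cck, cholecystokinin, was at 49.7 and 44.7 CPM at day 4 and 10.2 and 8.37 at day 7 (log2 fold change -2.35 ± 0.14 SE, adjusted p = 0.000126). Gcg, the precursor of glucagon-like peptides, was at 116 and 78.8 CPM at day 4 and 22.4 and 23.1 at day 7 (log2 fold change -2.09 ± 0.19 SE, adjusted p = 0.00206). Tac1, the precursor of substance P, was at 70.4 and 54.5 CPM at day 4 and 13.2 and 15 at day 7 (log2 fold change -2.14 ± 0.21 SE, adjusted p = 0.00206). Every day 7 library lay below every day 4 library in these 3 hormone genes, as in every gene called lower. Tph1, the rate-limiting enzyme of serotonin synthesis outside the brain, was at 42.4 and 25.4 CPM at day 4 and 8.59 and 7.26 at day 7 (log2 fold change -2.09 ± 0.24 SE, adjusted p = 0.00489). Pcsk1, a convertase that cuts prohormones, was at 51 and 41.3 CPM at day 4 and 15.7 and 17.1 at day 7 (log2 fold change -1.49 ± 0.14 SE, adjusted p = 0.00109). Ghrl, ghrelin, was at 22.8 and 23.3 CPM at day 4 and 7.51 and 6.9 at day 7 (log2 fold change -1.68 ± 0.27 SE, adjusted p = 0.0214). The granule proteins moved the same way: Chgb, chromogranin B, was at 2074 and 1151 CPM at day 4 and 496 and 494 at day 7 (log2 fold change -1.70 ± 0.25 SE, adjusted p = 0.0234). Scg2, secretogranin II, was at 31 and 19.9 CPM at day 4 and 8.37 and 8 at day 7 (log2 fold change -1.63 ± 0.24 SE, adjusted p = 0.0106). Pax6, a transcription factor of hormone cells, and Cpe, a carboxypeptidase that trims peptide hormones, complete the 10 and were named after their values were seen; their log2 fold changes were -1.35 ± 0.29 and -0.93 ± 0.19 (SE).

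The day 4 libraries differed from each other in several of these genes. Chga, chromogranin A, was at 131 and 60.6 CPM at day 4 and 47.1 and 49.5 at day 7 (log2 fold change -0.98 ± 0.36 SE, adjusted p = 0.254). Gip, the glucose-dependent insulinotropic peptide, was at 108 and 49.2 CPM at day 4 and 37.4 and 37.6 at day 7 (log2 fold change -1.06 ± 0.41 SE, adjusted p = 0.274). In both, day 4 replicate 1 stood far above the other 3 control libraries, and without that replicate their adjusted p-values were 0.0997 and 0.324, while without day 4 replicate 2 they were 0.000285 and 0.0201. Neurog3, the transcription factor of early enteroendocrine progenitors, was named after its values were seen and ran the other way, at 21.5 and 15.4 CPM at day 4 and 28.7 and 25 at day 7 (log2 fold change 0.55 ± 0.20 SE, adjusted p = 0.177). Of the 10 calls, the number that held was 8 without day 4 replicate 1, 8 without day 4 replicate 2, 4 without day 7 replicate 1 and 2 without day 7 replicate 2. Cck and Pcsk1 were called in all 4 fits, with highest adjusted p-values of 0.00729 and 0.0324, and the list's median ran from -1.52 to -0.82.

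Of 17 tested goblet cell markers 4 were called lower, against 1.46% of all tested genes, and none higher; the other 13 did not pass the test, and the median was -0.45. Muc2, the main mucin of the intestinal gel, was at 581 and 479 CPM at day 4 and 175 and 179 at day 7 (log2 fold change -1.58 ± 0.22 SE, adjusted p = 0.0221). Agr2, a disulfide isomerase needed for mucin folding, was at 123 and 110.1 CPM at day 4 and 60.9 and 59.2 at day 7 (log2 fold change -0.96 ± 0.09 SE, adjusted p = 0.0011). Both genes were lower in every day 7 library, as was every gene called lower. Tff3, trefoil factor 3, was at 129.9 and 131 CPM at day 4 and 95.5 and 88.8 at day 7 (log2 fold change -0.50 ± 0.09 SE, adjusted p = 0.0179). Fcgbp, a mucus protein, was at 1379 and 1154 CPM at day 4 and 898 and 959 at day 7 (log2 fold change -0.45 ± 0.10 SE, adjusted p = 0.0486). Spink4, a protease inhibitor that was not called, was at 90.8 and 82.8 CPM at day 4 and 62.4 and 56.9 at day 7 (log2 fold change -0.54 ± 0.18 SE, adjusted p = 0.177). Of the 4 calls, the number that held was 2 without day 4 replicate 1, 2 without day 4 replicate 2, 1 without day 7 replicate 1 and 1 without day 7 replicate 2; Agr2 was called in all 4 fits with a highest adjusted p of 0.0458.

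Tuft cell markers were sparse, with 8 of 16 passing the filter and none called. Of the 8, 7 had negative log2 fold changes, and the median was -0.83. An unadjusted p under 0.05 in edgeR was found for 4 of them, against 2520 of all 14063 tested genes. Dclk1, a kinase of tuft cells, had 43 and 38 counts at day 4 and 8 and 3 at day 7 (log2 fold change -2.40 ± 0.57 SE, adjusted p = 0.0546). Cd24a, a surface protein that tuft cells share with other crypt cells, was the member with the most counts and the exception in sign, at 360.3 and 338 CPM at day 4 and 418 and 427 at day 7 (log2 fold change 0.27 ± 0.08 SE, adjusted p = 0.119).

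Paneth cell markers gave 1 call in each direction among 19 tested members, against 1.25% of all tested genes called higher and 1.46% lower, with a median of 0.18. Itln1, intelectin, a lectin of Paneth and goblet cells, was at 337 and 267 CPM at day 4 and 659.9 and 648 at day 7 (log2 fold change 1.11 ± 0.15 SE, adjusted p = 0.00883). Nupr1, the member that fell, is a stress-inducible chromatin protein that also stands in the ATF4 list. Lyz1, Paneth lysozyme, was at 219 and 198 CPM at day 4 and 391 and 383 at day 7 (log2 fold change 0.89 ± 0.24 SE, adjusted p = 0.124). It was higher at day 7 in both libraries, as were 26% of all tested genes, but not called. In edgeR on the 4 control libraries alone Lyz1 was called (adjusted p = 0.00109), and in DESeq2 it was not (adjusted p = 0.0564). The alpha-defensins Defa17 and Defa24 were not called in any of these fits. Defa17 was at 743 and 381 CPM at day 4 and 642 and 605 at day 7 (adjusted p = 0.867). Defa24 was at 502 and 256 CPM at day 4 and 427 and 419 at day 7 (adjusted p = 0.841). In both, day 4 replicate 1 lay above both day 7 libraries and day 4 replicate 2 below them. Near-identical copies of the defensin genes make their counts uncertain. Leaving out day 4 replicate 1 or 2 moved the list's median to 0.97 or -0.14. The 2 calls held without day 4 replicate 1, while without day 4 replicate 2 Nupr1 alone was called and without either day 7 replicate neither was, with highest adjusted p-values of 0.101 and 0.101.

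**Figure D3:**
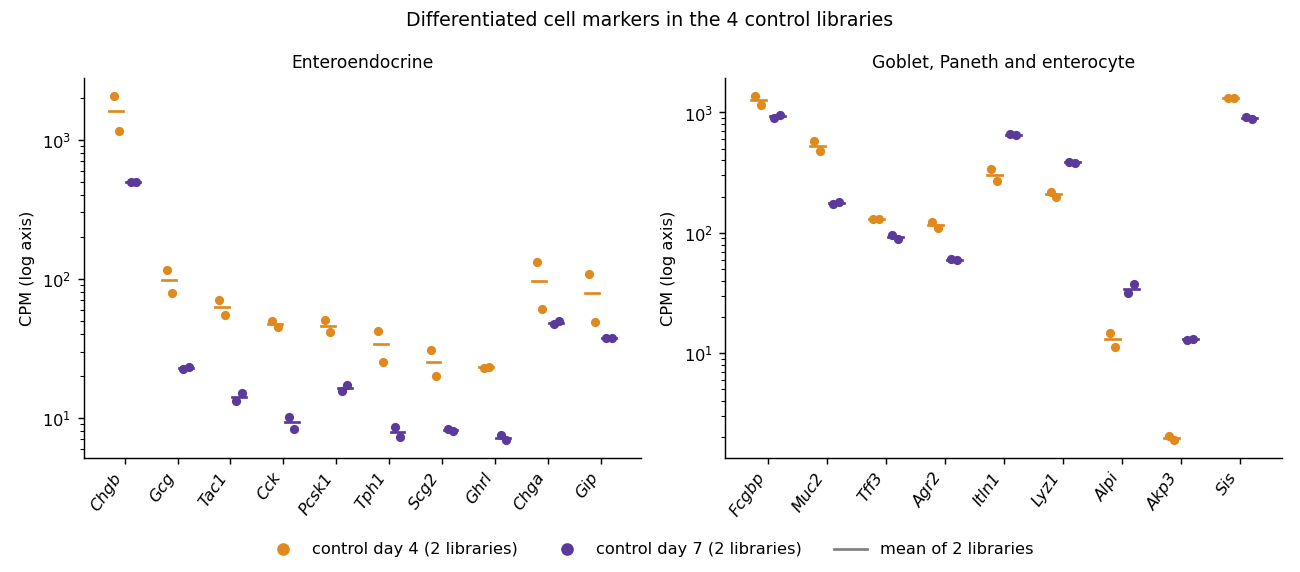
CPM on a log axis for enteroendocrine genes (left) and for goblet, Paneth and enterocyte genes (right), with 2 points per day for the 2 control libraries and a bar at their mean. Cck, Gcg and Muc2 lie lower at day 7 in both libraries, Akp3, Alpi and Itln1 lie higher, and the day 4 points of Chga and Gip are far apart.

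Of 28 enterocyte markers 1 was called, where 2.72% of all tested genes were called, and the median was 0.06 (-0.07 without day 4 replicate 2). The call was Alpi, an intestinal alkaline phosphatase of the brush border, at 14.8 and 11.3 CPM at day 4 and 31.6 and 37.3 at day 7 (log2 fold change 1.42 ± 0.25 SE, adjusted p = 0.0371); its highest adjusted p with 1 library left out was 0.27, and it was not called in any of the 4 such fits. Akp3, a related intestinal alkaline phosphatase, had the second largest rise of all named genes, at 2.05 and 1.89 CPM at day 4 and 13 and 13.1 at day 7 (log2 fold change 2.73 ± 0.22 SE, adjusted p = 0.000506), and was called with any of the 4 libraries left out. Sis, sucrase-isomaltase, was not called and was at 1314 and 1315 CPM at day 4 and 909 and 888 at day 7 (log2 fold change -0.55 ± 0.26 SE, adjusted p = 0.325). In edgeR on the 4 control libraries alone Sis was called lower (adjusted p = 0.00563), and in DESeq2 it was not called (adjusted p = 0.512). That edgeR fit called 1 enterocyte marker higher and 4 lower, against 256 and 364 of all 13452 genes it tested. DESeq2 called 3 higher and 1 lower, against 175 and 254 of all 14063 genes. Apoa4, an apolipoprotein of fat absorption, was at 137 and 81.1 CPM at day 4 and 150.0 and 155 at day 7 (log2 fold change 0.49 ± 0.47 SE, adjusted p = 0.656), with the day 4 replicates far apart. Of 10 genes of immature enterocytes 1 was called, Dmbt1, a mucosal scavenger protein, at 193 and 273 CPM at day 4 and 98.3 and 101 at day 7 (log2 fold change -1.22 ± 0.20 SE, adjusted p = 0.0332). Of 11 villus tip genes 1 was called, Klf4, a transcription factor of differentiated epithelium and 1 of the 4 factors of the transgene, at 27 and 35.7 CPM at day 4 and 18 and 19.7 at day 7 (log2 fold change -0.74 ± 0.16 SE, adjusted p = 0.0444). Both calls held without day 4 replicate 1 and with no other replicate left out.

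Enzymes of drug and retinoid metabolism moved in both directions. Of 26 tested xenobiotic enzymes, 2 were called higher and 3 lower, against 1.25% and 1.46% of all tested genes, with a median of -0.05. Cyp2b10, a cytochrome P450 induced through the receptor CAR, was at 51 and 27.7 CPM at day 4 and 138 and 154 at day 7 (log2 fold change 1.91 ± 0.27 SE, adjusted p = 0.0267). Ugt2b5, a glucuronosyltransferase, was at 6.99 and 5.42 CPM at day 4 and 11.5 and 13.7 at day 7 (log2 fold change 1.04 ± 0.21 SE, adjusted p = 0.0342). The 3 that fell were Ces2e, a carboxylesterase, at 308 and 385 CPM at day 4 and 163 and 168 at day 7 (log2 fold change -1.07 ± 0.17 SE, adjusted p = 0.0198), the glucuronosyltransferase Ugt2b34 (log2 fold change -0.64 ± 0.11 SE) and the sulfotransferase Sult1d1 (log2 fold change -0.55 ± 0.10 SE). Genes of the Ugt2b and Ces2 families have close copies, so their counts are uncertain. Aldh1a1, a retinaldehyde dehydrogenase that makes retinoic acid, was the 1 call among 11 tested retinoid genes, at 51.6 and 34.6 CPM at day 4 and 100.5 and 88.1 at day 7 (log2 fold change 1.14 ± 0.18 SE, adjusted p = 0.0222). Cyp2b10 and Aldh1a1 were called without either day 4 replicate, and the other 4 calls held only without day 4 replicate 1; without either day 7 replicate none of the 6 was called, and their highest adjusted p-values ran from 0.177 to 0.302. In lipid handling, Plin2, a coat protein of lipid droplets, rose (log2 fold change 0.50 ± 0.10 SE, adjusted p = 0.0325) and Pparg, a nuclear receptor for fatty acids, fell (log2 fold change -0.56 ± 0.12 SE, adjusted p = 0.0386) among 25 genes of fatty acid oxidation and PPAR targets (median -0.09). Of 25 sterol synthesis genes 1 fell, Stard4, a sterol carrier (log2 fold change -0.42 ± 0.09 SE, adjusted p = 0.0339); Hmgcs1 and Idi1, 2 enzymes of the pathway, were not called, and Hmgcs1 was at 943 and 563 CPM at day 4 and 552 and 525 at day 7 with day 4 replicate 1 apart from the other 3. The median of the sterol list was -0.22; leaving out day 4 replicate 1 gave 0 calls and a median of 0.02, and leaving out day 4 replicate 2 gave 8 calls and a median of -0.39. Plin2, Pparg and Stard4 were not called with any of the 4 control libraries left out.

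Lists of transcription factors and signalling genes gave from 1 to 3 calls each, where 2.72% of all tested genes were called. Gata5, a GATA factor of the intestinal epithelium, was at 8.27 and 8.66 CPM at day 4 and 18.3 and 18.6 at day 7 (log2 fold change 1.12 ± 0.15 SE, adjusted p = 0.00619). Cdx2, the homeobox factor of intestinal identity, was at 120.2 and 148 CPM at day 4 and 85.8 and 96.6 at day 7 (log2 fold change -0.56 ± 0.11 SE, adjusted p = 0.0314). These 2 and Klf4 were the calls among 21 tested intestinal transcription factors (median -0.06); Hnf4a, a nuclear receptor of enterocytes, had a log2 fold change of -0.16 ± 0.08 (SE, adjusted p = 0.325). Sox4, an SRY-box factor of early progenitors, was the 1 call among 15 tested Notch and secretory fate genes (median 0.10), at 152 and 137 CPM at day 4 and 254 and 261 at day 7 (log2 fold change 0.83 ± 0.10 SE, adjusted p = 0.00383). Hes1, the Notch effector that holds back secretory fate, was at 47.6 and 46.2 CPM at day 4 and 50.6 and 50.8 at day 7 (log2 fold change 0.11 ± 0.11 SE, adjusted p = 0.655). The receptor Notch1 had a log2 fold change of 0.48 ± 0.18 (SE, adjusted p = 0.205), and Atoh1, the factor that commits cells to secretory fate, was at 2.98 and 1.58 CPM at day 4 and 1.29 and 1.01 at day 7 (log2 fold change -0.97 ± 0.46 SE, adjusted p = 0.301). Id1, a target of BMP signalling, was the 1 call among 13 tested BMP and Id genes (median -0.25), at 8.69 and 13.2 CPM at day 4 and 4.51 and 4.05 at day 7 (log2 fold change -1.37 ± 0.25 SE, adjusted p = 0.0227).

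Among EGF family genes, the ligand betacellulin fell, where 1.46% of all tested genes were called lower. Btc was at 40.9 and 45 CPM at day 4 and 18.6 and 20 at day 7 (log2 fold change -1.16 ± 0.11 SE, adjusted p = 0.00109), the 1 call among 17 tested members (median -0.16), and it was called with any 1 control library left out (highest adjusted p 0.0324). Areg, amphiregulin, a second ligand of the receptor, was named after its values were seen, at 48.4 and 81 CPM at day 4 and 27.5 and 25.6 at day 7 (log2 fold change -1.30 ± 0.26 SE, adjusted p = 0.058). Among 19 tested YAP targets (median -0.09), 1 was called higher and 1 lower, against 1.25% and 1.46% of all tested genes. Ptpn14, a phosphatase that retains YAP in the cytoplasm, rose and Crim1, a transmembrane BMP antagonist, fell. Ptpn14 was at 1.7 and 1.34 CPM at day 4 and 5.69 and 5.15 at day 7 (log2 fold change 1.84 ± 0.37 SE, adjusted p = 0.0339). Crim1 was at 60.6 and 58.8 CPM at day 4 and 37 and 40.7 at day 7 (log2 fold change -0.62 ± 0.11 SE, adjusted p = 0.0214). Of 23 tested fetal-like and regenerative genes 1 was called, Anxa2, a membrane-binding annexin, lower at day 7, while the list's median was 0.43. Anxa2 was at 261 and 279 CPM at day 4 and 171 and 175 at day 7 (log2 fold change -0.64 ± 0.08 SE, adjusted p = 0.00484). Clu, clusterin, the marker of revival stem cells, was at 11.1 and 3.66 CPM at day 4 and 28.1 and 29.8 at day 7 (log2 fold change 2.04 ± 0.66 SE, adjusted p = 0.216). Ly6a, also called Sca-1, was at 2.47 and 1.58 CPM at day 4 and 8.37 and 7.17 at day 7 (log2 fold change 1.96 ± 0.42 SE, adjusted p = 0.0526). Both lay higher in each day 7 library than in each day 4 library without being called, and 26% of all tested genes lay higher in this way. Ly6a was called in edgeR on the 4 control libraries alone (adjusted p = 0.0111) and in DESeq2 (adjusted p = 0.000157). Clu was called in neither (adjusted p = 0.153 and 0.0563). Anxa10, an annexin of gastric epithelium, was at 2.3 and 1.04 CPM at day 4 and 10.8 and 8.83 at day 7 (log2 fold change 2.62 ± 0.83 SE, adjusted p = 0.203). None of 6 tested gastric genes was called in the fit of all 8 libraries, and their median log2 fold change was 2.07. In 5 of the 6 the days did not overlap, with day 7 higher, as in 26% of all tested genes. The 14 gastric genes with an ID summed to 5.96 and 2.68 CPM at day 4 and 16.5 and 14.4 CPM at day 7. Anxa10 was called higher in edgeR on the 4 control libraries alone (adjusted p = 0.00777) and in DESeq2 (adjusted p = 0.00314).

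Of the calls among transcription factors and signalling genes, Sox4 held without any 1 replicate other than day 7 replicate 2 (adjusted p = 0.0737), Gata5 and Anxa2 held without either day 4 replicate and were lost without either day 7 replicate, and Cdx2, Id1 and Crim1 held only without day 4 replicate 1. Ptpn14 was called in none of the 4 fits, with adjusted p-values from 0.0646 to 0.237.

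Targets of ATF4, the transcription factor of the amino acid and integrated stress response, fell in part: 6 of 26 tested ATF4, serine and one-carbon genes were called lower, against 1.46% of all tested genes, none was called higher, and the median was -0.35. Aldh1l2, a mitochondrial folate dehydrogenase, was at 29.9 and 30.8 CPM at day 4 and 11.3 and 12.5 at day 7 (log2 fold change -1.35 ± 0.14 SE, adjusted p = 0.00162). Atf5, a transcription factor related to ATF4, was at 47.1 and 55.9 CPM at day 4 and 27.8 and 27.9 at day 7 (log2 fold change -0.89 ± 0.12 SE, adjusted p = 0.00684). Nupr1 was at 101 and 111 CPM at day 4 and 64.9 and 62 at day 7 (log2 fold change -0.74 ± 0.10 SE, adjusted p = 0.00489). In all 3, as in every gene called lower, each day 7 library lay under each day 4 library. Cth, the cystathionine lyase that makes cysteine, was at 77 and 106 CPM at day 4 and 52.8 and 51 at day 7 (log2 fold change -0.82 ± 0.14 SE, adjusted p = 0.0181). Pycr1, a mitochondrial enzyme of proline synthesis, was at 12.6 and 16.3 CPM at day 4 and 7.84 and 8.18 at day 7 (log2 fold change -0.86 ± 0.18 SE, adjusted p = 0.0386). Mthfd2, a mitochondrial folate enzyme that completes the 6 and was named after its value was seen, had a log2 fold change of -0.61 ± 0.14 (SE). The mRNA of Atf4 itself was at 205 and 201 CPM at day 4 and 184 and 195 at day 7 (log2 fold change -0.10 ± 0.07 SE, adjusted p = 0.512), and Aldh18a1, which starts proline synthesis, was not called (log2 fold change 0.11 ± 0.09 SE). Of the 6 calls, the number that held was 6 without day 4 replicate 1, 3 without day 4 replicate 2, 1 without day 7 replicate 1 and 1 without day 7 replicate 2; Aldh1l2 was the member called in all 4 fits (highest adjusted p 0.0492).

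RefSeq promoter windows were found for 4 of these 6 genes, 5 windows in all, and were searched on both strands for TGATGNAA, the composite element bound by ATF4 with C/EBP partners. A match was present in 2 of the 5 windows, those of Nupr1 and Pycr1, and in 3.45% of all 32851 windows. The match began 110 bases before the start in Nupr1 and 103 bases before it in Pycr1. Both windows are shown because their genes fell and hold the motif, 5′ to 3′ on the strand of the gene, with the match in capitals; a match is a description of the letters and not a measured site.
Nupr1, chr7:126625471-126625720, minus strand: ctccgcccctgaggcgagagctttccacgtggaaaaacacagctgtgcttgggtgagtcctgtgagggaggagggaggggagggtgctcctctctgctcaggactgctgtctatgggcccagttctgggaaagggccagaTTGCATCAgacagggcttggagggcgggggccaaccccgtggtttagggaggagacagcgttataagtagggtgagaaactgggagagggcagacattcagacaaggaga
Pycr1, chr11:120643749-120643998, minus strand: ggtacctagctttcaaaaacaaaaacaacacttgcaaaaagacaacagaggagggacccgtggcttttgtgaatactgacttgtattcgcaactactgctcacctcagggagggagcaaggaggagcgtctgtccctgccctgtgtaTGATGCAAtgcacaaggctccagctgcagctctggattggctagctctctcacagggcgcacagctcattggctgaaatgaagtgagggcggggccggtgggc

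Of 27 p53 target genes 3 were called lower, against 1.46% of all tested genes, and none higher (median -0.25). The days did not overlap, with day 7 lower, in 17 of the 27, against 26.5% of all tested genes. Ccng1, cyclin G1, was at 274 and 274 CPM at day 4 and 197 and 197 at day 7 (log2 fold change -0.47 ± 0.09 SE, adjusted p = 0.0221). Zmat3, an RNA-binding p53 target, was at 57.8 and 79.7 CPM at day 4 and 42.8 and 38.9 at day 7 (log2 fold change -0.76 ± 0.15 SE, adjusted p = 0.0375). Phlda3, an inhibitor of Akt, was at 4.18 and 7.38 CPM at day 4 and 2.36 and 2.02 at day 7 (log2 fold change -1.42 ± 0.32 SE, adjusted p = 0.0471). Cdkn1a, the cell cycle inhibitor p21, was at 59.8 and 84.1 CPM at day 4 and 45.2 and 49.2 at day 7 (log2 fold change -0.61 ± 0.16 SE, adjusted p = 0.0922). All 4 were lower in both day 7 libraries, and the 3 calls held without day 4 replicate 1 and with no other replicate left out. Hsph1, a co-chaperone, was the 1 call among 13 cytosolic heat shock genes, at 64.4 and 86.1 CPM at day 4 and 121 and 123 at day 7 (log2 fold change 0.70 ± 0.13 SE, adjusted p = 0.0317), and was lost without either day 7 replicate. All 30 genes of the hypoxia response and glycolysis had negative log2 fold changes (median -0.56, against 50.1% of all tested genes with a negative value). Of all 14063 tested genes, 2520 had an unadjusted p under 0.05 in edgeR, and of these 30 genes 7 did. The number called lower depended on the fit: it was 0 in the fit of all 8 libraries and with limma voom, 3 with DESeq2, 5 with voom group weights, 8 in edgeR with no filter and 23 in edgeR on the 4 control libraries alone. None was called higher in any of these fits, and with 1 control library left out none was called. Pkm, pyruvate kinase, was at 2313 and 2503 CPM at day 4 and 1714 and 1747 at day 7 (log2 fold change -0.48 ± 0.13 SE, adjusted p = 0.0887), and Gapdh at 2382 and 2399.8 CPM at day 4 and 1799.7 and 1882 at day 7 (log2 fold change -0.38 ± 0.18 SE, adjusted p = 0.31). Among 23 tested interferon-stimulated genes none was called (median -0.75) and 2 had an unadjusted p under 0.05.

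Of 22 tested immediate-early and AP-1 genes 1 was called higher and 1 lower (median -0.19), against 1.25% and 1.46% of all tested genes. Several members stood far apart between the day 4 replicates. Fos was at 185 and 359 CPM at day 4 and 172 and 173 at day 7. Egr1 was at 249 and 493 CPM at day 4 and 299.8 and 293 at day 7. Fosb, named after its values were seen, was at 51.7 and 179 CPM at day 4 and 44.3 and 43.9 at day 7. In each, day 4 replicate 2 was the highest of the 4 libraries, and none was called (adjusted p = 0.352, 0.663 and 0.42). Without day 4 replicate 1, Fos and Egr1 were called lower at day 7, with adjusted p-values of 0.00552 and 0.017. Klf6, a zinc finger factor of the same list, rose with both days' replicates close, at 76 and 89.2 CPM at day 4 and 143 and 141 at day 7 (log2 fold change 0.78 ± 0.09 SE, adjusted p = 0.0038); it and Klf4 were the 2 calls. Leaving out day 4 replicate 1 gave this list a median of -0.47, and leaving out day 4 replicate 2 gave it a median of 0.17. Epithelial defence genes gave 3 calls among 10 tested members, against 2.72% of all tested genes called. Noxo1, the organizer subunit of the oxidase NOX1, was at 5.71 and 5.79 CPM at day 4 and 13 and 13.2 at day 7 (log2 fold change 1.19 ± 0.16 SE, adjusted p = 0.00565). Pla2g5, a secreted phospholipase A2, was at 1.02 and 0.914 CPM at day 4 and 4.62 and 5.61 at day 7 (log2 fold change 2.40 ± 0.35 SE, adjusted p = 0.00814); the third was Dmbt1. In prostaglandin metabolism Pla2g4a, the phospholipase that frees arachidonic acid, rose and Slco2a1, the prostaglandin transporter, fell, the 2 calls among 17 tested members. Pla2g4a was at 11.8 and 8.23 CPM at day 4 and 22.5 and 22.7 at day 7 (log2 fold change 1.19 ± 0.18 SE, adjusted p = 0.00936). Slco2a1 was at 6.14 and 5.49 CPM at day 4 and 2.15 and 3.22 at day 7 (log2 fold change -1.09 ± 0.23 SE, adjusted p = 0.0383). Ptgs2, the inducible cyclooxygenase, had 2 and 11 counts at day 4 and 34 and 17 at day 7 (log2 fold change 2.47 ± 0.70 SE, adjusted p = 0.112). Ptgs1, the constitutive cyclooxygenase, had 1 and 2 counts at day 4 and 1 and 1 at day 7, too few for the filter. Klf6, Noxo1 and Pla2g4a were called without either day 4 replicate, Pla2g5 without day 4 replicate 1, and Slco2a1 with none of the 4 left out; none of the 5 was called without either day 7 replicate.

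Of the 4 reprogramming factors of the transgene, Klf4 and Myc passed the filter and Klf4 was called. Pou5f1 had 2 and 0 counts at day 4 and 0 and 0 at day 7 and Sox2 had 0 and 0 counts at day 4 and 0 and 1 at day 7, and a count of 0 allows up to 3. No fold is given for either. Klf4 and Myc are given above, and the deposited tables do not tell transgene reads from those of the endogenous genes.

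Several further lists gave 1 or 2 calls each, where 2.72% of all tested genes were called. Cldn2, a pore-forming claudin of the crypt, fell (log2 fold change -0.36 ± 0.07 SE, adjusted p = 0.0332), 1 of 17 tested claudin and tight junction genes. Grn, progranulin, and Map1lc3b, the autophagosome protein LC3B, rose (log2 fold change 0.47 ± 0.09 SE, adjusted p = 0.0258 and log2 fold change 0.48 ± 0.10 SE, adjusted p = 0.0332), 2 of 24 autophagy and lysosome genes. Peg3, a paternally expressed imprinted gene, fell (log2 fold change -1.33 ± 0.22 SE, adjusted p = 0.014), 1 of 8 tested imprinted genes. Ndufb3, a subunit of respiratory complex I, fell (log2 fold change -0.48 ± 0.10 SE, adjusted p = 0.0339), 1 of 32 nuclear subunits of oxidative phosphorylation. None of the 13 mitochondrial transcripts was called (median -0.31, and 0.08 without day 4 replicate 1). The level of mt-Co1 was 55292 and 47449 CPM at day 4 and 40538 and 41618 at day 7 (log2 fold change -0.32 ± 0.25 SE, adjusted p = 0.546). The share of counts on mitochondrial genes was 20.7% and 16.2% at day 4 and 16% and 16.1% at day 7. Cldn2, Map1lc3b and Peg3 were called without day 4 replicate 1, and Peg3 also without replicate 2; Grn and Ndufb3 were called in none of the 4 fits. In 22 of the 52 lists no member was called by edgeR. Of their 338 tested members, 60 had an unadjusted p under 0.05 in edgeR, against 2520 of all 14063 tested genes. Of these members limma voom called 0, DESeq2 10, voom with group weights 24, and edgeR 37 with no filter and 37 on the 4 control libraries alone. Besides those given above, these were the lists of endoplasmic reticulum chaperones, NRF2 targets, fatty acid synthesis, bile acid handling, antigen presentation, NF-kB feedback, keratins, matrix contact, and colon, immune, endothelial and neural markers.

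The medians of several lists moved with the control library left out. Leaving out day 4 replicate 1 moved the median from 0.06 to 0.14 for enterocyte markers and from -0.39 to -0.34 for villus tip genes. It went from 0.18 to 0.97 for Paneth markers and from 0.10 to 0.05 for Notch and secretory fate genes. For p53 targets it went from -0.25 to -0.36, and for ATF4 genes from -0.35 to -0.53. The median went from -0.05 to -0.04 for xenobiotic enzymes and from -0.09 to -0.30 for YAP targets. For EGF family genes it went from -0.16 to -0.38, and for claudin and tight junction genes from -0.08 to -0.19. Leaving out day 4 replicate 2 turned the sign of the median of the EGF family list (0.09), the YAP targets (0.23), the intestinal transcription factors (0.01) and the cytosolic ribosomal proteins (0.02), and leaving out day 7 replicate 1 also turned that of the YAP targets (0.21).

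**Figure D4:**
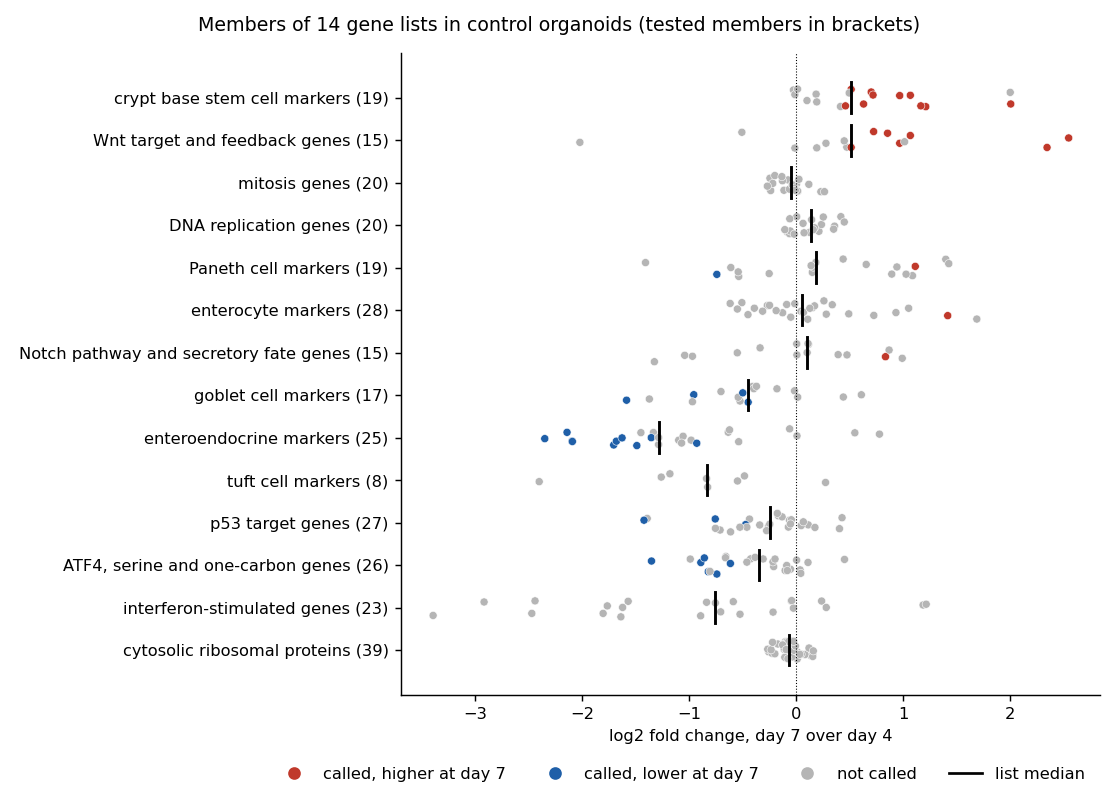
Each point is a tested member of 1 of 14 gene lists at its log2 fold change of day 7 over day 4 (horizontal), red if called higher, blue if called lower and grey if not called, with a black bar at the list's median and the number of tested members in brackets. The called stem cell and Wnt genes lie to the right of 0 and the called enteroendocrine, goblet, p53 and ATF4 genes to its left.

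The 20 largest rises and 20 largest falls among well expressed called genes included many outside these lists. Kif26b, a kinesin-related protein, was at 1.36 and 0.305 CPM at day 4 and 6.98 and 6.25 at day 7 (log2 fold change 3.07 ± 0.52 SE, adjusted p = 0.0179). Slc14a1, the urea transporter UT-B, was at 9.8 and 7.19 CPM at day 4 and 45.8 and 40.7 at day 7 (log2 fold change 2.36 ± 0.18 SE, adjusted p = 0.000506). Prelp, a leucine-rich proteoglycan of the matrix, was at 5.79 and 5.73 CPM at day 4 and 23.5 and 27.6 at day 7 (log2 fold change 2.15 ± 0.18 SE, adjusted p = 0.000506). The rises of Slc14a1 and Prelp were each called with any 1 control library left out, and that of Kif26b without day 4 replicate 1 alone. Ptprt, a receptor tyrosine phosphatase, was at 1.11 and 0.792 CPM at day 4 and 5.26 and 5.98 at day 7 (log2 fold change 2.57 ± 0.34 SE, adjusted p = 0.00512). Thbs1, thrombospondin 1, was at 32 and 15.6 CPM at day 4 and 81.5 and 85.3 at day 7 (log2 fold change 1.83 ± 0.30 SE, adjusted p = 0.0443). Fgfr4, a receptor for FGF15, was at 7.24 and 4.51 CPM at day 4 and 14.2 and 17 at day 7 (log2 fold change 1.43 ± 0.27 SE, adjusted p = 0.0302). Pcdh8, a protocadherin, had a log2 fold change of 2.34 ± 0.38, Sult6b2, a sulfotransferase, of 1.85 ± 0.26, Vwa2, a matrix protein, of 1.82 ± 0.31, Ccdc3 of 1.68 ± 0.22, Cd1d1, which presents lipid antigens, of 1.66 ± 0.33 and Apip, an enzyme of methionine salvage, of 1.42 ± 0.25 (SE).

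Among the falls, Pappa2, a protease of IGF-binding proteins, was at 37.9 and 26.8 CPM at day 4 and 5.37 and 5.24 at day 7 (log2 fold change -2.60 ± 0.41 SE, adjusted p = 0.0318) and was called in none of the 4 fits with 1 library left out (highest adjusted p 0.282). Grm4, a metabotropic glutamate receptor, was at 11.6 and 17.6 CPM at day 4 and 2.04 and 3.49 at day 7 (log2 fold change -2.38 ± 0.34 SE, adjusted p = 0.00814). Vim, vimentin, an intermediate filament protein of mesenchymal and some other cells, was at 15.3 and 14 CPM at day 4 and 3.54 and 4.6 at day 7 (log2 fold change -1.83 ± 0.20 SE, adjusted p = 0.00206) and was called in all 4 fits (highest adjusted p 0.0492). Of the 12 other mesenchymal markers, Col1a2, Lum, Thy1 and Foxl1 were at 0 in all 4 libraries and no other fell past the threshold. Scn3a, a neuronal-type sodium channel, was at 17 and 12.4 CPM at day 4 and 3.86 and 4.05 at day 7 (log2 fold change -1.88 ± 0.25 SE, adjusted p = 0.00598). Cacna1h, a T-type calcium channel, was at 8.69 and 12.2 CPM at day 4 and 3.22 and 3.22 at day 7 (log2 fold change -1.70 ± 0.28 SE, adjusted p = 0.015). C4bp, a complement regulator, was at 21.8 and 28.9 CPM at day 4 and 7.41 and 7.36 at day 7 (log2 fold change -1.79 ± 0.19 SE, adjusted p = 0.00162). Afp, alpha-fetoprotein, was at 29.6 and 20.7 CPM at day 4 and 9.02 and 6.71 at day 7 (log2 fold change -1.67 ± 0.21 SE, adjusted p = 0.00489). The remaining falls were C1rl, a complement protease (log2 fold change -2.29 ± 0.43 SE), Adamts15, a matrix protease (-2.24 ± 0.33), Fam129a (-2.16 ± 0.32), Cd177 (-1.84 ± 0.26), Dbp, a clock-controlled transcription factor (-1.72 ± 0.36), and Prex2, an exchange factor for Rac (-1.66 ± 0.26).

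Some calls were kept in each of the 4 fits with 1 control library left out, which leave 1 library in a group. A call lost in such a fit can reflect lower power as well as the library left out, and these were not told apart. Chgb, not among the kept calls, had a log2 fold change of -1.70 in the full fit and without either day 7 replicate. It was -1.22 without day 4 replicate 1 and -2.07 without day 4 replicate 2. The kept calls described above are Akp3, Slc14a1, Prelp and Tnfrsf19, which rose, and Cck, Pcsk1, Vim, Agr2, Btc and Aldh1l2, which fell. The others were named after their values were seen. Nav1, a microtubule-binding protein, was at 42.5 and 40.9 CPM at day 4 and 97.9 and 98.1 at day 7 (log2 fold change 1.23 ± 0.09 SE, adjusted p = 0.000224). Mreg, melanoregulin, was at 8.78 and 9.51 CPM at day 4 and 22.1 and 24.2 at day 7 (log2 fold change 1.34 ± 0.13 SE, adjusted p = 0.00126). Arrdc3, an arrestin-domain protein, was at 35.1 and 34.6 CPM at day 4 and 77.1 and 71 at day 7 (log2 fold change 1.09 ± 0.10 SE, adjusted p = 0.00109). These 3 rose with little spread within either day. Sorcs2, a sorting receptor, rose with a log2 fold change of 1.03 ± 0.11, Utrn, utrophin, rose with 0.84 ± 0.08, and Ces2g, a carboxylesterase, fell with -1.10 ± 0.12 (SE).

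More genes were called between the same days in irradiated organoids, with 2071 genes called higher (14.7%) and 2568 lower (18.3%). The comparison shares no library with that of the controls. Of the 176 genes that rose in controls, 90 (51.1%) also rose in irradiated organoids, which is 4.35% of the irradiated rises, and of the 206 that fell, 142 (68.9%) also fell, 5.53% of the irradiated falls. Opposite calls were made for 22 genes higher in controls and lower in irradiated organoids and for 21 the other way. A test of the difference between both changes called 1422 genes (10.1%), among them 109 of the 382 called in controls, 55 that rose and 54 that fell. Without control day 7 replicate 1 or 2 this test called 244 and 270 genes.

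The enteroendocrine falls were seen in both arms, with 10 calls in controls and 18 in irradiated organoids and medians of -1.28 and -1.87. Of all tested genes, 1.46% were called lower in controls and 18.3% in irradiated organoids. The difference was called for 2 of 25 members, close to the 10.1% of all tested genes, so this count does not set the list apart. Cck fell from 73 and 62.2 CPM to 18.1 and 19 CPM after irradiation (difference of the log2 changes, control less irradiated, -0.48 ± 0.20 SE, adjusted p = 0.142). For crypt base markers the counts of calls were 10 and 13 of 19, all higher, against 1.25% and 14.7% of all tested genes. The difference was called for 2 of the 19, again close to the share of all tested genes. The ATF4 list went in opposite directions, with 6 called lower in controls, 17 called higher and 3 lower in irradiated organoids, and the difference called for 15 of 26. Aldh1l2 was at 3.33 and 3.48 CPM at day 4 and 6.43 and 7.46 at day 7 in irradiated organoids (difference -2.37 ± 0.24 SE, adjusted p = 0.000747). Atf5 was at 13.8 and 16.2 CPM at day 4 and 30.8 and 29.1 at day 7 (difference -1.89 ± 0.18 SE, adjusted p = 0.000725).

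Akp3 and Itln1 also moved in opposite directions in control and irradiated organoids. Akp3 was at 75.8 and 105 CPM at day 4 and 39.1 and 42.4 at day 7 in irradiated organoids and fell where it rose in controls (difference 3.88 ± 0.26 SE, adjusted p = 0.000133). Itln1 was at 1157 and 1572 CPM at day 4 and 506 and 531 at day 7 (difference 2.51 ± 0.21 SE, adjusted p = 0.000694). Of 28 enterocyte markers, 27 were called lower in irradiated organoids and 1 higher in controls, and the difference was called for 18. Mitosis genes, none of them called in controls, were called higher in 20 of 20 in irradiated organoids, with the difference called for 17, and the 39 ribosomal protein genes were called higher in 39, with the difference called for 36. Lgr5 was at 165 and 193 CPM at day 4 and 294 and 289 at day 7 in irradiated organoids (difference -0.72 ± 0.15 SE, adjusted p = 0.0162). In the opposite sense, Prex2 and Dmbt1 rose after irradiation where the controls fell. Prex2 was at 15.6 and 19.1 CPM at day 4 and 57.2 and 33 at day 7 in irradiated organoids (difference -3.04 ± 0.36 SE, adjusted p = 0.00406). Dmbt1 was at 42.3 and 61.4 CPM at day 4 and 137 and 131 at day 7 (difference -2.60 ± 0.29 SE, adjusted p = 0.00515).

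**Figure D5:**
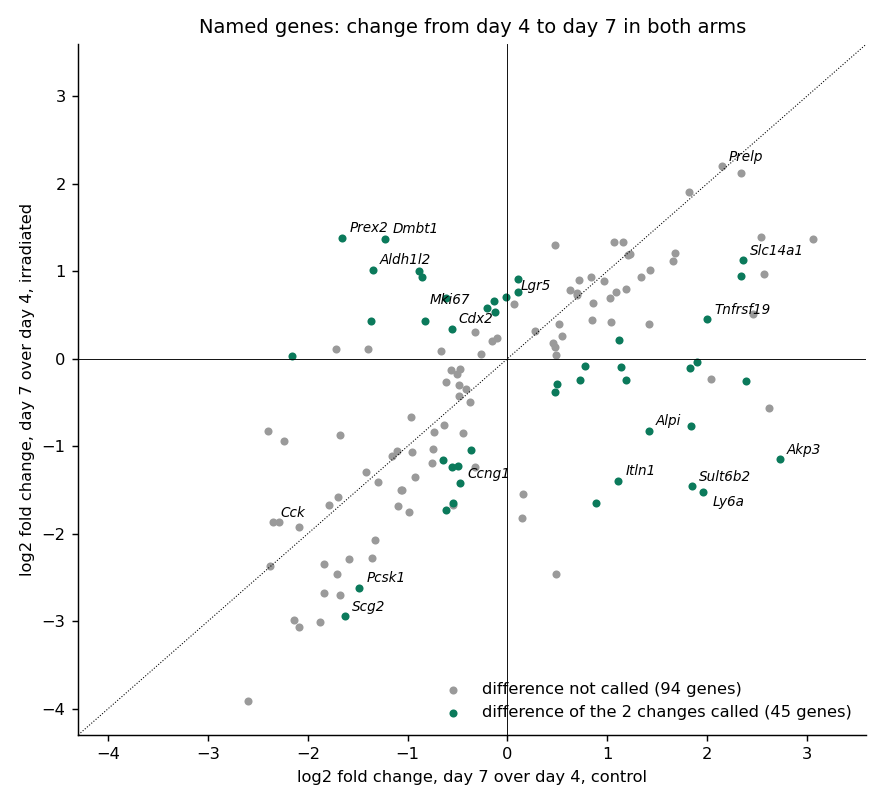
Each point is 1 named gene at its log2 fold change of day 7 over day 4 in control (horizontal) and irradiated organoids (vertical), green where the difference between both changes was called and grey where it was not, with equal change on the dotted line. Cck and Prelp lie near the line, Akp3, Sult6b2 and Itln1 lie under it, and Aldh1l2, Dmbt1 and Prex2 lie above it.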

How the data were processed

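Per the labels' protocols, poly-A selected RNA was made into stranded libraries. The authors deposited 2 tables with 1 column for each library, expected counts and TPM (transcript abundance corrected for length and scaled to a fixed total). Tools in the submitters' processing notes are RSEM 1.3.3 and STAR 2.7.3a, with Trim Galore and FastQC, and both GRCm39 and mm10 appear there with no stated role. Neither an annotation release nor a strand setting was stated, so antisense reads may be counted with a gene.

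Of 55416 gene IDs, 52083 matched a symbol in GENCODE M21. Expected counts were rounded, which changed 11.45% of the values. Genes were filtered with filterByExpr (minimum count 10, minimum total 15), which left 14063, of which 33 had no symbol, and were fitted with edgeR 4.0.16 (quasi-likelihood, robust, TMM) as 4 group means over all 8 libraries, with Benjamini-Hochberg adjustment over all tested genes. The control day 4 and day 7 groups were contrasted, as was the control change less the irradiated change. SE is the log2 fold change over the square root of F. The script was tested on simulated data. Alternatives were DESeq2 1.42.0, limma 3.58.1 (voom, and log2 TPM with a pseudocount of 1 or 0.1 for genes at 1 TPM or more in 2 libraries), other filters and scaling, and leaving out single libraries.

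Named genes were the 20 largest called rises and falls without overlap at 5 CPM or more (predicted, histone and mitochondrial genes excepted), up to 5 called and 2 other members of each of 52 gene lists, and 21 genes fixed by name; genes outside this rule are said to have been named after their values were seen, and 1 gene that the rule names is not reported here. The lists and members were chosen with earlier results of these data known.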

Additional observations from a re-analysis of the deposited data

Results flagged for a closer look

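Of the 139 tested genes named here, 45 changed between day 4 and day 7 by an amount that differed between control and irradiated organoids in edgeR's test of the difference itself, 29 with a larger or more positive change in controls and 16 the other way. The values that follow are the control log2 change less the irradiated log2 change.

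Among genes that rose in controls, the difference was 3.88 for Akp3, 3.31 for Sult6b2, 2.65 for Pla2g5, 2.61 for Ptpn14, 2.51 for Itln1, 2.24 for Alpi, 1.94 for Cyp2b10, 1.94 for Thbs1, 1.56 for Tnfrsf19 and 1.43 for Noxo1. It was 1.40 for Sp5, 1.23 for Slc14a1, 1.23 for Aldh1a1, 0.96 for Apcdd1, 0.90 for Gata5, 0.86 for Klf6 and 0.79 for Plin2. Among genes that fell in controls and fell further after irradiation, it was 1.32 for Scg2, 1.13 for Pcsk1, 0.95 for Ccng1, 0.73 for Tff3, 0.69 for Sult1d1, 0.68 for Cldn2 and 0.52 for Anxa2.

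Genes that fell in controls and rose or changed less after irradiation gave negative differences, with -3.04 for Prex2, -2.60 for Dmbt1, -2.37 for Aldh1l2, -2.19 for Fam129a, -1.89 for Atf5, -1.80 for Id1, -1.79 for Pycr1, -1.31 for Mthfd2, -1.25 for Cth and -0.90 for Cdx2.

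Among genes not called in controls, the difference was 3.49 for Ly6a, 2.55 for Lyz1, 1.12 for Cdkn1a, 1.11 for Spink4 and 0.85 for Cd44, and it was negative with -0.80 for Hes1, -0.79 for Top2a, -0.78 for Mki67, -0.72 for Lgr5, -0.66 for Rpl4 and -0.65 for Aldh18a1. Each group of the study holds 2 libraries, too few to look for a library that stands apart within its group gene by gene.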

How the results depend on the processing

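The count of 382 calls (176 higher, 206 lower) ranged with the method. It was 1217 (467 and 750) with no filter, where 30447 genes were tested, 858 (338 and 520) with limma-voom and group weights, 620 (256 and 364) in the 4 control libraries alone, 58 (35 and 23) on log2(TPM + 1) and 55 (37 and 18) on log2(TPM + 0.1). A fold change of at least 2 left 156 (65 and 91). Leaving out 1 control library gave from 17 to 746 calls, from 10 to 347 higher and from 7 to 399 lower. The count for the difference between control and irradiated changes, 1422, was 2456 with no filter, 308 and 338 on the TPM values, 569 with a fold change of at least 2, and from 244 to 1785 with 1 control library left out. Apart from the filters and the fold rule, the cause of these shifts was not tested. DESeq2 called 429 genes, 296 of them among the 382, and limma-voom called 303.

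The deviations of replicate 1 in control day 4 and control day 7 correlated at 0.007 over genes, which are not independent replicates. With 2 libraries per group this value cannot tell whether libraries with the same replicate number were paired. A fit with the replicate block called 473 genes (215 higher, 258 lower), and 1443 for the difference. In it 97 of the 101 called genes named here kept their call. In edgeR on the 4 control libraries alone 91 of the 101 kept their call. Of the 38 tested genes named here without a call, 9 gained one in that fit of the 4 control libraries.

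No called gene that is named here changed sign under any of the 15 alternative fits, and 11 of 101 kept their call under all of them. Genes that were not called and changed sign did so on the TPM scales or without a day 4 library. Lgr5 was at 0.0498 and 0.0502 on the TPM scales. With 1 control library left out, the log2 fold change ran from -0.13 to 0.12 for Lgr5, from -0.25 to 0.71 for Defa17, from -0.25 to 0.72 for Defa24, from -0.55 to 0.086 for Idi1 and from -0.73 to 0.25 for Egr1. With 2 libraries per group, a left-out library leaves 1 that is assumed to vary like the other groups.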
